A study of Mus musculus with 18 samples.

Results

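The purinergic system is described here through 10 genes of 53465 in the deposited table, chosen by name: the P2Y receptor genes P2ry6, P2ry12, P2ry13 and P2ry14, the P2X receptor genes P2rx4 and P2rx7, the ectonucleotidase genes Entpd1 and Nt5e, and the adenosine receptor genes Adora2a and Adora3. They were read in 18 libraries of microglia and macrophages, which had been sorted from the injured spinal cords of 9 adult female C57BL/6J mice. Every mouse received a contusion of the spinal cord and, 48 h later, an intraspinal injection of PBS (mice 1, 2 and 3), recombinant IL-13 (rIL-13; mice 5, 6 and 7) or recombinant IL-4 (rIL-4; mice 8, 9 and 10). Cells were taken 24 h after the injection, so that each mouse gave 1 library of microglia (CD45low, CD11b+, F4/80+) and 1 of macrophages (CD45high, CD11b+, F4/80+). Uninjured animals and other times were not analysed here, and both gates used the same 3 surface markers, so that the level of CD45 alone separated the cells.

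Injured cells release ATP, ADP, UTP and UDP. Microglia and macrophages sense these nucleotides with P2X receptors, which are ATP-gated cation channels, and with P2Y receptors, which are coupled to G proteins. Entpd1 encodes CD39, which degrades extracellular ATP and ADP to AMP, and Nt5e encodes CD73, which turns AMP into adenosine, the ligand of the adenosine receptors. P2ry12 is a textbook gene of resting microglia, in which its product guides processes toward ATP and ADP.

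Levels are CPM, library counts scaled to a common total, after TMM normalization over the 18 libraries, given in the order of the mouse numbers, and levels of different genes were compared only as CPM per kilobase of exon. Each library held between 35961305 and 45849829 counts. Changes are log2 fold changes from edgeR's quasi-likelihood test on the 9 libraries of a cell type. Standard errors were derived from that test, as the absolute log2 fold change over the square root of its F statistic. P-values were adjusted over every gene tested, and a gene was called at an adjusted p under 0.05. All 10 genes passed the filter on low counts in every comparison. The 7 microglia markers (Tmem119, Siglech, Sall1, Olfml3, Fcrls, Cx3cr1 and Sparc) summed to between 5013 and 8681 CPM in PBS microglia and to between 1084 and 2087 CPM in PBS macrophages, so that the macrophage libraries also held them. All 7 were above 10 CPM in every microglia library, and 0 of the 7 were at 0 throughout any group. The 8 markers of monocyte-derived macrophages, of which Chil3, a gene known to be induced by IL-4, is 1, summed to between 2395 and 3196 CPM and between 21883 and 24471 CPM in the same libraries. Markers of fibroblasts or pericytes summed to between 226 and 7996 CPM in the microglia libraries and stayed under 10 CPM in the macrophage libraries. Endothelial markers summed to between 902 and 2929 CPM in microglia.

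The receptors were laid out differently in the 2 cell types. In PBS microglia, P2ry12 had the highest level per length of the 10 genes, with 132 ± 58.0 CPM per kilobase (SD, n = 3), followed by P2ry13 with 78.4 ± 21.6, P2ry6 with 57.3 ± 6.63 and Entpd1 with 34.4 ± 9.18. The ranges of P2ry12 and P2ry13 overlapped, and so did those of P2ry13 and P2ry6. P2rx4 (11.4 ± 0.189 CPM per kilobase) and P2rx7 (10.2 ± 2.86) came next and overlapped as well, and Adora3, Nt5e, P2ry14 and Adora2a were below 5 on this scale. In PBS macrophages, P2ry6 stood apart at the top with 104 ± 5.36 CPM per kilobase. It was followed by P2ry12, P2ry13, P2rx4 and Entpd1 between 23.5 and 30.1, and these neighbours overlapped. After rIL-4, P2ry6 was highest in both cell types, with 71.7 ± 10.1 CPM per kilobase in microglia, where it still overlapped P2ry12 (48.5 ± 19.2), and with 143 ± 14.6 in macrophages, where the next gene, P2rx4, was at 28.6 ± 5.88.

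**Figure D1:**
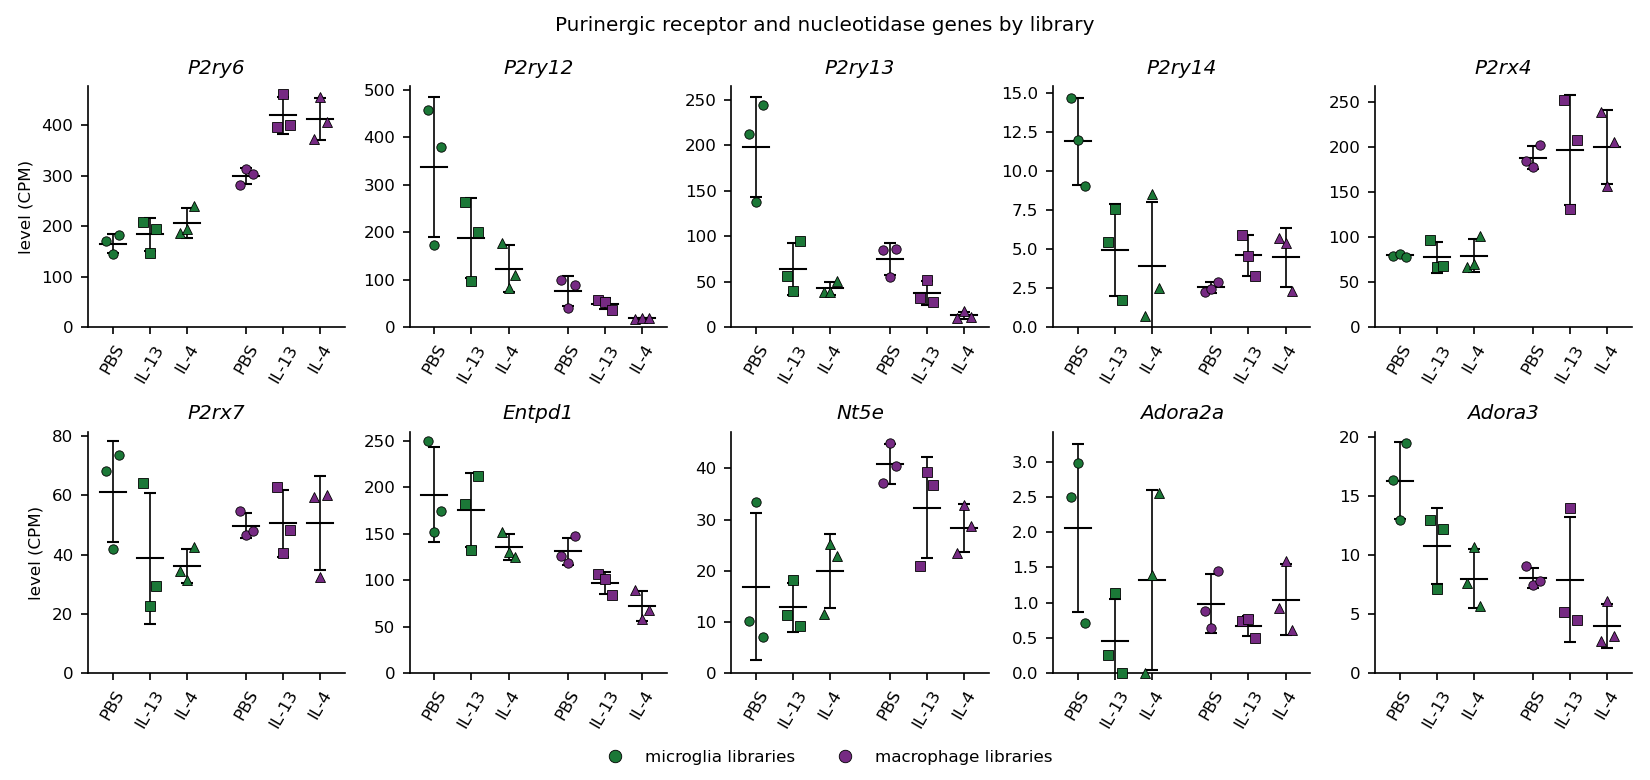
Level of each of the 10 genes in each library, in CPM (vertical axis, a scale of its own in every panel), for microglia and macrophages of mice given PBS, rIL-13 or rIL-4; points are mice and bars are the mean ± SD of 3 mice. The mean of P2ry12 is 337 CPM in PBS microglia, 76.6 CPM in PBS macrophages and 18.6 CPM in rIL-4 macrophages. That of P2ry6 is 165, 299 and 412 CPM in the same groups.

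P2ry12, P2ry13 and P2ry14 are neighbours on mouse chromosome 3 and lie on the minus strand of GRCm38. P2ry14 (ENSMUSG00000036381.13) spans chr3:59113855-59153618, P2ry13 (ENSMUSG00000036362.2) chr3:59207892-59210882 and P2ry12 (ENSMUSG00000036353.13) chr3:59216272-59262871. Med12l, a Mediator subunit gene on the other strand, runs across all 3, and the libraries do not record strand. It shared 9 exon bases with P2ry12 and 0 with P2ry13 and P2ry14. Its own level was between 0 and 5.46 CPM and reached at most 14% of P2ry12 and 23.6% of P2ry13 in any library, but up to 218% of P2ry14.

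P2ry12 and P2ry13 both encode receptors for ADP that signal through Gi proteins. The 250 bases before the start of each are shown because these neighbouring genes both fell in macrophages after rIL-4. They are taken from RefSeq on GRCm38.p6, are written 5′ to 3′ on the strand of the gene, and lie at chr3:59262986-59263235 for P2ry12 and at chr3:59210883-59211132 for P2ry13. An exon of Med12l crosses the P2ry12 window on the other strand.
P2ry12: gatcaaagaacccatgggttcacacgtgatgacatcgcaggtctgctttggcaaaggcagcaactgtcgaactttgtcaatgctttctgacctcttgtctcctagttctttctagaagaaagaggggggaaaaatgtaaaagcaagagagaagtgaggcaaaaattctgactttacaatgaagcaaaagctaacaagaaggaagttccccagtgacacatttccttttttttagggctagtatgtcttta
P2ry13: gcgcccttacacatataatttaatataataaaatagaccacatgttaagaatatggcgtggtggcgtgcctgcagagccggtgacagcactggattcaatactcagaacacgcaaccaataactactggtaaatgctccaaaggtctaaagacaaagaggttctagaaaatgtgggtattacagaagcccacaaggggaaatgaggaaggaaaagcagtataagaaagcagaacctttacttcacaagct

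Motifs of the STAT transcription factors, through which IL-4 and IL-13 receptors signal, were searched on both strands in these windows and in the others that RefSeq gave for 8 of the 10 genes, 13 windows in all (P2ry6 and Adora2a had no entry). TTC and GAA with 4 bases between them, the spacing of STAT6, were in 5.85%, and with 3 bases between them in 7.02%, of 32851 such windows of the genome. Neither string was in any of the 13. GAGGAAGT, a motif of the myeloid factor PU.1, was in 2.44% of all windows and in 1 of the 13. That window belongs to Adora3 (chr3:105904171-105904420, plus strand). The capitals mark the match, which reads GAGGAAGT on the other strand and lies 30 bases before the start.
Adora3: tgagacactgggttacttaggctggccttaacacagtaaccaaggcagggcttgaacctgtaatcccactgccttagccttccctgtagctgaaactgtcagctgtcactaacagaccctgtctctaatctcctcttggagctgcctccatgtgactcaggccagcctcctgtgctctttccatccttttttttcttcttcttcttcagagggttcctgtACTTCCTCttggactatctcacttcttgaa
These matches describe letters in short windows and were not tested as binding sites.

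P2ry12 was high in PBS microglia and low in every macrophage group, and it was lower after rIL-4 in macrophages. In PBS microglia, it had 459, 173 and 380.0 CPM. The rIL-13 microglia had 264, 96.7 and 201 CPM and the rIL-4 microglia 177, 82.0 and 111 CPM. These groups overlapped, since the lowest PBS library, of mouse 2, was just under the highest rIL-4 library, of mouse 8. The change with rIL-4 in microglia was -1.43 (SE 0.46) with an adjusted p of 0.163, and with rIL-13 it was -0.84 (SE 0.45) with an adjusted p of 0.781. Macrophages had 100.3, 40.1 and 89.4 CPM with PBS, 57.9, 53.6 and 36.4 CPM with rIL-13, and 17.0, 18.7 and 20.3 CPM with rIL-4. The rIL-4 libraries lay within a narrow range below all 6 others of that cell type. In macrophages, P2ry12 fell by 2.04 (SE 0.31) on the log2 scale with rIL-4, a 4.12-fold lower level, with an adjusted p of 0.00216. The change with rIL-13 in macrophages, -0.63 (SE 0.30), had an adjusted p of 0.309.

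P2ry13 was the gene of the group that was called in both cell types after rIL-4. Microglia had 212, 138 and 244 CPM with PBS, 56.4, 39.5 and 95.1 CPM with rIL-13, and 38.5, 38.8 and 50.5 CPM with rIL-4. Both cytokine groups lay below the lowest PBS library without overlap. With rIL-4, P2ry13 fell by 2.20 (SE 0.34) on the log2 scale in microglia, a 4.59-fold lower level, with an adjusted p of 0.0136. This call was lost without PBS mouse 1 (adjusted p = 0.0671) or PBS mouse 3 (0.0693). With rIL-13 the change was -1.63 (SE 0.33), with an adjusted p of 0.116. Macrophages had 85.2, 54.9 and 85.5 CPM with PBS, 31.9, 52.3 and 28.2 CPM with rIL-13, and 10.1, 17.5 and 11.3 CPM with rIL-4. All 3 groups were apart there, and P2ry13 fell by 2.54 (SE 0.30) with rIL-4, a 5.81-fold lower level, with an adjusted p of 0.000536. Its change with rIL-13 in macrophages, -1.0 (SE 0.28), had an adjusted p of 0.0851, and 0.0278 without rIL-13 mouse 6.

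Within each cell type, the mean levels of P2ry12, P2ry13 and the microglia markers were all highest with PBS and lowest with rIL-4, but the libraries of a group did not always keep that order. The 7 markers summed to 8681, 5013 and 7286 CPM in PBS microglia, to 4632, 2676 and 3668 CPM with rIL-13 and to 3015, 1926 and 2055 CPM with rIL-4. In each treatment, the microglia library with the lowest sum, of mouse 2, 6 or 9, was also the library with the least P2ry12. P2ry13 was lowest in the same library with PBS and with rIL-13, whereas with rIL-4 it was lowest in mouse 8 (38.5 CPM), which had the highest sum. In macrophages, the sums were 1883, 1084 and 2087 CPM with PBS, 722, 395 and 479 CPM with rIL-13, and 193, 101 and 162 CPM with rIL-4. PBS mouse 2 had the lowest sum there with the least of both genes, but the libraries with the lowest sums after rIL-13 (mouse 6) and rIL-4 (mouse 9) held the most P2ry13 of their groups, 52.3 and 17.5 CPM, and were in the middle for P2ry12. Over the same groups, the summed markers of monocyte-derived macrophages went from between 2395 and 3196 CPM in PBS microglia to between 6175 and 9550 CPM with rIL-13 and between 16383 and 25558 CPM after rIL-4. Chil3 alone had 127 ± 108 CPM in PBS microglia and 17337 ± 5083 CPM in rIL-4 microglia. Without Chil3, a sum chosen after the values were seen, the 7 others overlapped between the groups, with 2344 to 2945 CPM after PBS, 1460 to 4182 CPM after rIL-13 and 2388 to 4927 CPM after rIL-4. Fibroblast or pericyte markers were between 2536 and 3660 CPM in PBS microglia, between 1291 and 7996 CPM with rIL-13 and between 226 and 1581 CPM with rIL-4. Endothelial markers were between 902 and 1946 CPM, between 1664 and 2929 CPM and between 2027 and 2683 CPM in the same order, so that both lists were apart between PBS and rIL-4. So were those of neurons (12.3 to 24.8 CPM and 6.12 to 8.97 CPM) and of T or NK cells (0.474 to 1.54 CPM and 0 CPM), while the neutrophil, astrocyte, oligodendrocyte lineage, B cell and dendritic cell lists overlapped. Mitochondrial protein genes took 2.18% to 3.01% of the counts in PBS microglia and 6.35% to 12.2% in rIL-4 microglia. The part of all these markers in the P2ry12 and P2ry13 results was not tested, and in sorted bulk samples fewer cells of a type and less RNA per cell cannot be told apart.

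**Figure D2:**
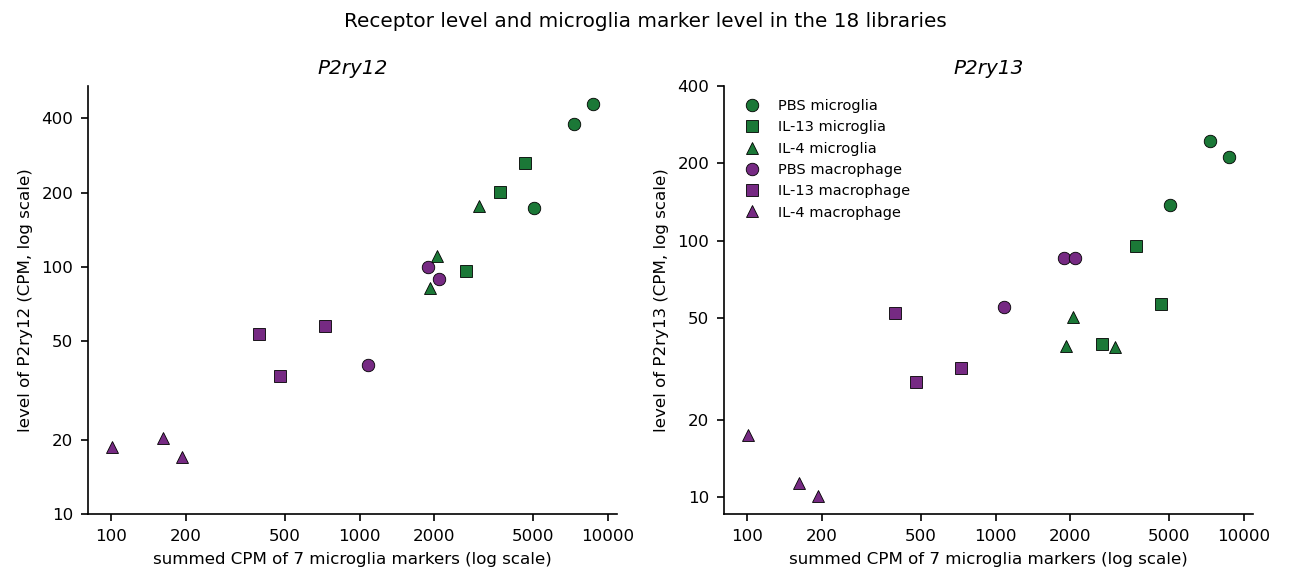
P2ry12 and P2ry13 in CPM (vertical axes, log scale) against the summed CPM of 7 microglia markers (horizontal axes, log scale) in the 18 libraries, by cell type and treatment. The rIL-4 macrophages, with 101 to 193 CPM of markers, are at the lower left and the PBS microglia, with 5013 to 8681 CPM, at the upper right.

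P2ry6 encodes the receptor for UDP, which is known for triggering phagocytosis in microglia. The gene (ENSMUSG00000048779.5) spans chr7:100937630-100974649 on the minus strand of GRCm38. Macrophages had 283, 313 and 303 CPM with PBS, 397, 462 and 400.1 CPM with rIL-13, and 373, 457 and 407 CPM with rIL-4. Every cytokine library of the macrophages was above every PBS library, and both cytokine groups overlapped each other. The rise with rIL-4 was 0.46 (SE 0.13) on the log2 scale, a 1.38-fold higher level, with an adjusted p of 0.0346, close to the threshold. With 1 mouse left out, it stayed below the threshold only without rIL-4 mouse 8 (0.0413). Without rIL-4 mouse 9 or 10, or any of the 3 PBS mice, the adjusted p was between 0.0855 and 0.134, and it was between 0.0516 and 0.0911 with all 18 libraries in a model, without a filter or with only the 6 libraries compared. With rIL-13, the difference was 0.49 (SE 0.13), with an adjusted p of 0.0575. In microglia, P2ry6 had 169.9, 144 and 182 CPM with PBS, 209, 147 and 195 CPM with rIL-13, and 187, 194 and 240.3 CPM with rIL-4. The rIL-4 libraries lay just above the PBS libraries, and the change of 0.34 (SE 0.18) had an adjusted p of 0.389.

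P2ry14 encodes the receptor for UDP-glucose and related UDP sugars and was a low gene in all groups. Microglia had 14.7, 12.0 and 9.08 CPM with PBS, 5.45, 7.58 and 1.76 CPM with rIL-13, and 0.724, 8.55 and 2.5 CPM with rIL-4. Macrophages had 2.29, 2.44 and 2.92 CPM with PBS, 5.93, 4.6 and 3.28 CPM with rIL-13, and 5.71, 5.43 and 2.30 CPM with rIL-4. The cytokine libraries were thus below PBS in microglia, and in macrophages those with rIL-13 were above PBS while 1 with rIL-4 was within the PBS range. The change in microglia, -1.57 (SE 0.84) with rIL-4, had an adjusted p of 0.413. In macrophages, the change with rIL-4, 0.82 (SE 0.37), had an adjusted p of 0.179. The reads of P2ry14 may include reads of Med12l in these unstranded libraries.

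The balance among the 4 P2Y receptor genes was read from their levels per kilobase. P2ry6 made up between 18.2% and 28.8% of their sum in PBS microglia, 36.4% to 48.5% with rIL-13 and 43.2% to 58.1% with rIL-4. In macrophages, its share was from 57.2% to 74.2% with PBS, from 79.2% to 84.3% with rIL-13, and from 91.5% to 92.0% after rIL-4. The share of P2ry12 went the other way, from 39.1% to 55.5% in PBS microglia, 27.9% to 46.6% in rIL-4 microglia, 10.8% to 23.0% in PBS macrophages and 4.24% to 5.18% in rIL-4 macrophages. The ratio of P2ry6 to P2ry12 per kilobase averaged 0.495 in PBS microglia, 1.64 in rIL-4 microglia, 4.12 in PBS macrophages and 19.5 in rIL-4 macrophages. Shares of 1 sum are not independent of each other and were not tested.

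**Figure D3:**
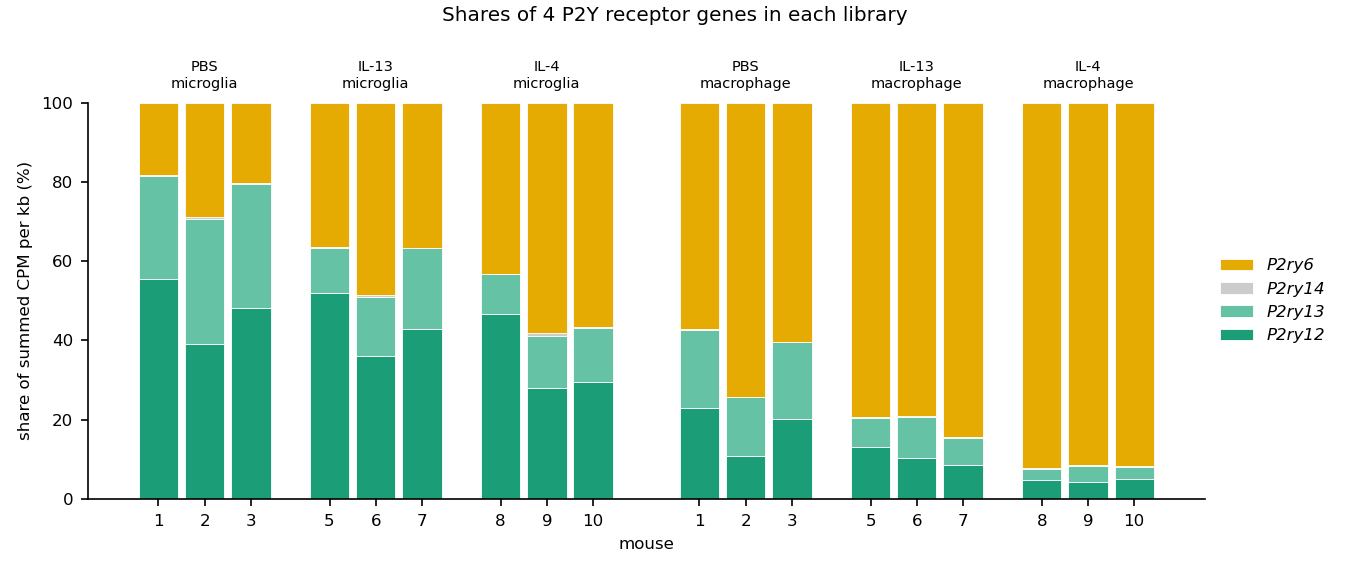
Share of P2ry6, P2ry12, P2ry13 and P2ry14 in their summed CPM per kilobase (vertical axis, percent) in each of the 18 libraries, by cell type and treatment. The share of P2ry6 is between 18.2% and 28.8% in PBS microglia and between 91.5% and 92.0% in rIL-4 macrophages.

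Both P2X receptor genes lie close together on chromosome 5 on the plus strand, P2rx7 (ENSMUSG00000029468.17) at chr5:122643911-122691432 and P2rx4 (ENSMUSG00000029470.15) at chr5:122707544-122729738 of GRCm38. The P2rx4 channel opens at low ATP levels and is also found in lysosomes. P2rx4 had 79.7, 81.1 and 78.4 CPM in PBS microglia and 184, 178 and 203 CPM in PBS macrophages. Its level in macrophages was above that in microglia in each of the 9 mice. After rIL-13 it was 97.2, 67.5 and 67.8 CPM in microglia and 252, 131 and 208 CPM in macrophages. After rIL-4 it was 67.5, 70.1 and 101 CPM in microglia and 239, 157 and 206 CPM in macrophages. Within a cell type these groups overlapped, and no treatment comparison called P2rx4. The P2rx7 channel, which opens at high ATP levels and is an upstream signal of the NLRP3 inflammasome, had 68.1, 41.7 and 73.7 CPM in PBS microglia, 64.0, 22.5 and 29.5 CPM with rIL-13 and 34.6, 31.3 and 42.4 CPM with rIL-4. The highest rIL-4 library was above the PBS library of mouse 2. Its change with rIL-4 in microglia, -0.74 (SE 0.38), had an adjusted p of 0.384. In macrophages, P2rx7 was between 32.5 and 62.6 CPM in all 9 libraries, with overlapping groups.

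Of the nucleotidase genes, Entpd1 was lower in macrophages after rIL-4. Entpd1 (ENSMUSG00000048120.16) lies at chr19:40612366-40741602 on the plus strand of GRCm38. Macrophages had 126, 119 and 147 CPM with PBS, 106, 102 and 83.6 CPM with rIL-13, and 89.9, 57.8 and 68.2 CPM with rIL-4. All PBS libraries were above all cytokine libraries. Entpd1 fell by 0.86 (SE 0.18) on the log2 scale with rIL-4 in macrophages, a 1.82-fold lower level, with an adjusted p of 0.0118, and of 0.0548 without rIL-4 mouse 10. With rIL-13, the change of -0.42 (SE 0.18) had an adjusted p of 0.251. Microglia had 249.8, 152 and 174 CPM with PBS, 182, 133 and 212 CPM with rIL-13, and 151, 131 and 125 CPM with rIL-4. The rIL-4 group was below the PBS group by a small gap, and the change of -0.48 (SE 0.23) had an adjusted p of 0.343.

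Nt5e (ENSMUSG00000032420.8, chr9:88327197-88372092, plus strand) was lower than Entpd1 in every library per kilobase. It had 37.2, 45.0 and 40.4 CPM in PBS macrophages, 21.0, 39.4 and 36.7 CPM with rIL-13, and 23.4, 32.8 and 28.8 CPM with rIL-4. The PBS and rIL-4 macrophages did not overlap, yet the change of -0.53 (SE 0.22) had an adjusted p of 0.153. In microglia, it had 10.2, 33.4 and 7.10 CPM with PBS, 11.3, 18.3 and 9.13 CPM with rIL-13, and 11.6, 25.2 and 22.9 CPM with rIL-4. The microglia of PBS mouse 2 held over 3 times the Nt5e of the other PBS microglia. That library had the most fibroblast or pericyte markers of its group, 3660 CPM against 2536 and 2745 CPM, and also the most markers of monocyte-derived macrophages, 3196 CPM against 2395 and 2546 CPM. With rIL-13, the microglia of mouse 6 likewise had the most fibroblast or pericyte markers (7996 CPM against 1857 and 1291 CPM) and the most Nt5e, but the fewest monocyte-derived markers (6175 CPM). With rIL-4, the microglia of mouse 8 had the most fibroblast or pericyte markers (1581 CPM), the fewest monocyte-derived markers (16383 CPM) and the least Nt5e. The part of these markers in the Nt5e levels was not tested.

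The adenosine receptor genes were among the low genes of the group. Adora3 (ENSMUSG00000000562.5, chr3:105870858-105908926, plus strand), which encodes a Gi-coupled receptor, shares 779 exon bases, 20.9% of its exons, with Tmigd3 on the same strand, and Tmigd3 reached up to 24.8% of its level. Reads of both genes could be divided between them. Adora3 had 16.4, 13 and 19.6 CPM in PBS microglia, 13, 7.10 and 12.2 CPM with rIL-13, and 7.64, 10.7 and 5.71 CPM with rIL-4. The rIL-4 microglia were all below the PBS microglia, and the change of -1.0 (SE 0.37) had an adjusted p of 0.223. Macrophages had 9.07, 7.44 and 7.78 CPM with PBS, 5.19, 14 and 4.53 CPM with rIL-13, and 2.76, 6.16 and 3.15 CPM with rIL-4. Here too the rIL-4 group was below PBS, with a change of -1.01 (SE 0.44) and an adjusted p of 0.161. Among all macrophage libraries, Adora3 was highest in the rIL-13 macrophages of mouse 6. That library also held the most neutrophil markers, 3162 CPM against 577 and 541 CPM in the other rIL-13 mice. It likewise held the most astrocyte (406 CPM against 64.3 and 114 CPM), endothelial, dendritic cell and fibroblast or pericyte markers of its group. Microglia, monocyte-derived macrophage, oligodendrocyte lineage and T or NK cell markers were fewest there. The part of these markers in the Adora3 level was not tested. Adora2a (ENSMUSG00000020178.6, chr10:75316877-75334784, plus strand), whose product is coupled to Gs, was between 0 and 2.98 CPM in the 18 libraries, with 0 counts in the microglia of rIL-13 mouse 7 and rIL-4 mouse 8. No direction could be read from such values.

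Over the group, more genes passed the threshold with rIL-4 in macrophages than in microglia, against a background that also differed. In macrophages, 4 of the 10 genes were called with rIL-4, P2ry6 higher and P2ry12, P2ry13 and Entpd1 lower, where 14% of all 13606 genes tested were called (6.77% as higher, 7.2% as lower). Libraries of PBS and rIL-4 were fully apart for 6 of the 10, which were these 4 with Nt5e and Adora3, against 34.7% of all genes. In microglia, 1 of the 10, P2ry13, was called with rIL-4, and it was lower, against 2.22% of 15566 genes, or 0.887% as lower. The microglia groups were apart for 5 of the 10 (P2ry13, P2ry14, Entpd1 and Adora3 lower, P2ry6 higher), against 25.9% of all genes. The median log2 fold change of the 10 with rIL-4 was -0.68 in microglia, beside -0.06 over all genes, and -0.25 in macrophages, beside 0.02 over all genes. DESeq2's Wald test called P2ry12 as well as P2ry13 with rIL-4 in microglia, against 7.81% of all genes.

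Other measures of the macrophage libraries also differed between PBS and rIL-4. The markers of monocyte-derived macrophages summed to between 21883 and 24471 CPM with PBS and to between 99510 and 120228 CPM with rIL-4, most of which was Chil3 (95918 ± 13325 CPM). Without Chil3, the 7 others were between 18995 and 21578 CPM with PBS and between 9836 and 15349 CPM with rIL-4. Endothelial markers went from between 45.4 and 54.5 CPM to between 205 and 429 CPM, and astrocyte markers from between 23.1 and 29.2 CPM to between 66 and 511 CPM. Neutrophil markers went from between 929 and 1600 CPM to between 255 and 901 CPM, and oligodendrocyte lineage markers from between 113 and 163 CPM to between 72.5 and 83.4 CPM. Those of fibroblasts or pericytes, T or NK cells and B cells, all under 10 CPM, were also lower with rIL-4 without overlap. The share of mitochondrial protein genes was between 0.532% and 0.745% with PBS and between 0.836% and 1.41% with rIL-4. These measures moved with the 4 calls in rIL-4 macrophages, and their part in them was not tested.

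With rIL-13, edgeR called 0 of the 10 in either cell type. In microglia, where 0.366% of all genes were called, 1 of the 10 (P2ry13) had an unadjusted p under 0.05, close to the 7.76% of all genes that did, and DESeq2 called that gene, with 2.07% of all genes. In macrophages, where 4.19% of all genes were called, 4 of the 10 (P2ry6, P2ry13, P2ry14 and Entpd1) had an unadjusted p under 0.05, against 17.9% of all genes, and DESeq2 called P2ry13 and P2ry6, against 8.55%. The PBS and rIL-13 libraries were apart for 2 of the 10 in microglia (P2ry13 and P2ry14), against 16% of all genes, and for 4 of the 10 in macrophages (P2ry13 and Entpd1 lower, P2ry6 and P2ry14 higher), against 24.5%. The median change of the 10 with rIL-13 was -0.62 in microglia and -0.18 in macrophages, beside 0.00 over all genes in both. The rIL-4 and rIL-13 comparisons share their PBS libraries.

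**Figure D4:**
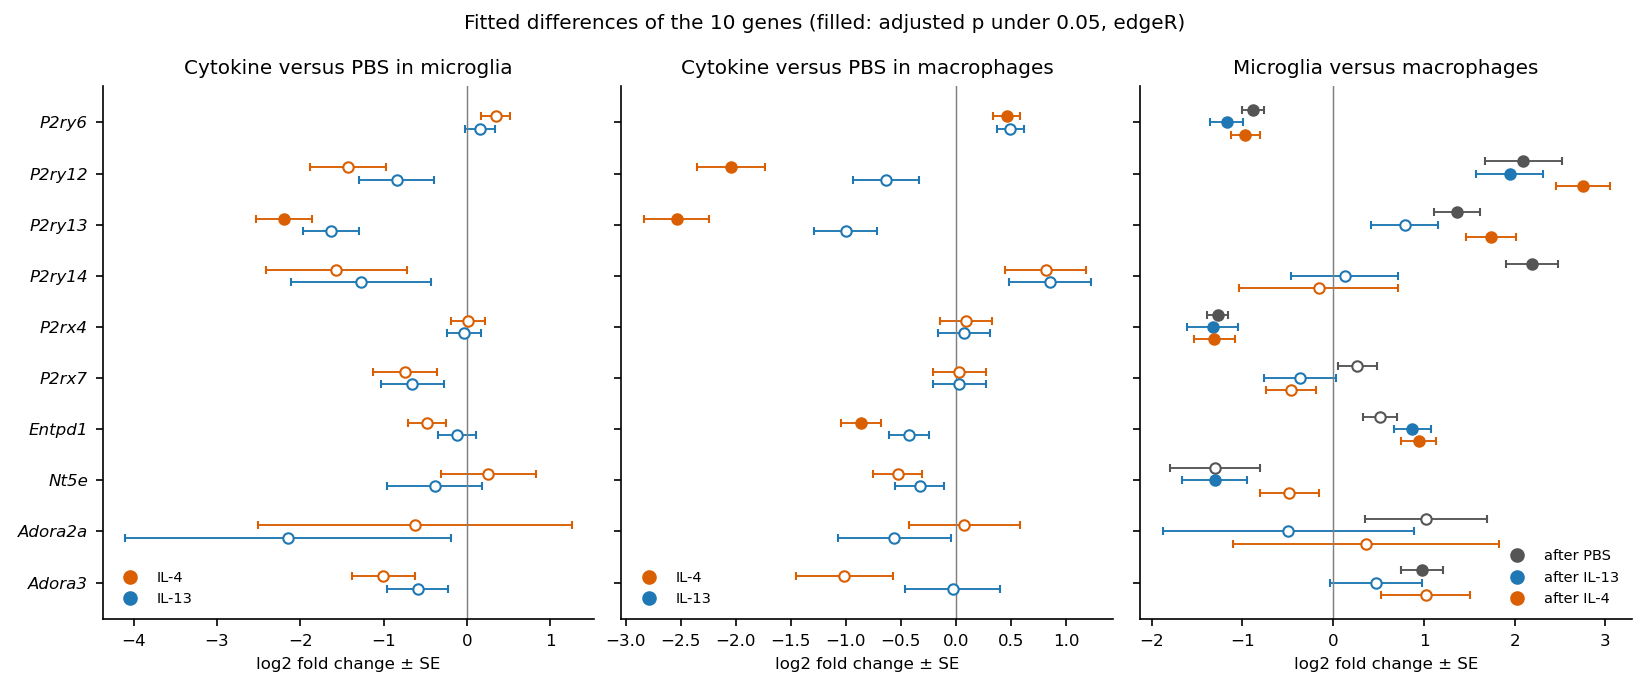
Log2 fold change ± SE (horizontal axis) of the 10 genes, 3 mice per group. Panels show rIL-4 and rIL-13 against PBS in microglia and in macrophages, and microglia against macrophages after each treatment. Filled points have an adjusted p under 0.05. In the panels against PBS, the filled points are P2ry13 in rIL-4 microglia (-2.20) and P2ry13 (-2.54), P2ry12 (-2.04), Entpd1 (-0.86) and P2ry6 (0.46) in rIL-4 macrophages. Between the cell types, 6 genes are filled after PBS, 5 after rIL-13 and 5 after rIL-4.

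Between the 2 cytokines, edgeR called 0 of the 10 genes in microglia, where 0.0385% of all genes were called, 0 had an unadjusted p under 0.05 (11.4% of all genes) and DESeq2 also called 0 (3.58%). In macrophages, edgeR called 0, against 0.25% of all genes, with 4 of the 10 at an unadjusted p under 0.05, against 11.1%, and DESeq2 called P2ry12 and P2ry13, against 3.09%. P2ry13 was 1.53 (SE 0.29) lower on the log2 scale with rIL-4 than with rIL-13, with an adjusted p of 0.0654, and P2ry12 1.41 (SE 0.31) lower, with an adjusted p of 0.102. For both, the rIL-4 and rIL-13 macrophages did not overlap, which held for 14.4% of all genes.

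Microglia and macrophages of the same mice differed at more of these genes than the treatments did, as was also the case over all genes. After PBS, 6 of the 10 were called, 4 higher in microglia and 2 higher in macrophages, against 40.9% of 14715 genes (24.5% and 16.3%). P2ry12 was 2.10 (SE 0.42) higher in microglia on the log2 scale (adjusted p = 0.00414), P2ry13 1.36 (SE 0.25) higher (0.00262), P2ry14 2.19 (SE 0.29) higher (0.000457) and Adora3 0.98 (SE 0.23) higher (0.00881). Adora3 was not called without PBS mouse 3 (adjusted p = 0.107) or with all 18 libraries in a model (0.101). P2rx4 was higher in macrophages, with a difference of -1.27 (SE 0.11) and an adjusted p of 5.14e-05, and so was P2ry6, with -0.89 (SE 0.12) and an adjusted p of 0.000534. Entpd1 (0.52, SE 0.19) and Nt5e (-1.30, SE 0.50) had adjusted p of 0.0568 and 0.0672. With the mouse as a replicate block they were 0.0370 and 0.0119, so that 8 of the 10 were called, against 40.2% of all genes, and DESeq2 without the block called the same 8, against 44.3% of all genes. Without PBS mouse 2, the difference of Nt5e was -2.24, with an adjusted p of 0.000863.

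After rIL-13, 5 of the 10 differed between the cell types, against 26.7% of all genes. P2ry12 (1.95, SE 0.37, adjusted p = 0.00741) and Entpd1 (0.87, SE 0.21, 0.0184) were higher in microglia. P2ry6 (-1.17, SE 0.18, 0.00344), P2rx4 (-1.33, SE 0.28, 0.0113) and Nt5e (-1.31, SE 0.36, 0.0333) were higher in macrophages. All 5 calls were lost without rIL-13 mouse 7, when their adjusted p was between 0.0588 and 0.249, and those of Entpd1 and Nt5e also without rIL-13 mouse 5 (0.102 and 0.0700). P2ry13 (0.79, SE 0.37) had an adjusted p of 0.162, and 0.0236 without rIL-13 mouse 6.

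After rIL-4, 5 of the 10 differed, against 23.4% of all genes. P2ry12 (2.75, SE 0.29, adjusted p = 0.000663), P2ry13 (1.74, SE 0.27, 0.00355) and Entpd1 (0.94, SE 0.20, 0.0117) were higher in microglia, and P2rx4 (-1.31, SE 0.23, 0.00556) and P2ry6 (-0.97, SE 0.16, 0.00448) in macrophages. The calls of P2ry13 (0.0533) and Entpd1 (0.0960) were lost without rIL-4 mouse 10, that of Entpd1 also without rIL-4 mouse 9 (0.0593), and that of P2rx4 without rIL-4 mouse 8 (0.0549). After each of the 3 treatments, P2ry12 was thus called higher in microglia, and P2ry6 and P2rx4 higher in macrophages. Over all treatments, endothelial markers summed to between 902 and 2929 CPM in microglia and between 45.4 and 429 CPM in macrophages. Fibroblast or pericyte markers summed to between 226 and 7996 CPM in microglia and stayed under 10 CPM in macrophages. The part of these markers in the differences between the cell types was not tested.

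Whether the response to a cytokine differed between the cell types was tested by the interaction of cell type and treatment over the 18 libraries. For rIL-4, edgeR called 0 of the 10 genes, against 0.992% of 16535 genes, and for rIL-13 it called 0, against 0.0242%. In both tests, 1 of the 10, P2ry14, had an unadjusted p under 0.05, which was near the share of all genes (12.4% for rIL-4 and 5.83% for rIL-13). DESeq2 called 0 of the 10, against 4.17% and 0.931% of all genes. The response of P2ry14 to rIL-4 was 2.41 (SE 0.97) lower on the log2 scale in microglia than in macrophages, with an adjusted p of 0.302. For P2ry12, which was called with rIL-4 in macrophages and not in microglia, the responses differed by 0.59 (SE 0.58), with an adjusted p of 0.813. For Entpd1 the difference was 0.36 (SE 0.30; 0.736), and for P2ry6 it was -0.14 (SE 0.21; 0.919). Their responses were therefore not shown to differ between microglia and macrophages.

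A further 51 genes of the same pathways were taken in 7 lists, of which 50 were found. The lists, too, were chosen with earlier results of these data known. In microglia after rIL-4, P2ry1, which encodes another ADP receptor, was the only 1 of the 43 list genes tested that was called, a share of 2.33% beside 2.22% of all genes. It had 4.46 ± 1.95 CPM with PBS (SD, n = 3), 15.1 ± 4.68 CPM with rIL-13 and 18.9 ± 4.82 CPM with rIL-4 and rose by 2.10 (SE 0.40) on the log2 scale with rIL-4, with an adjusted p of 0.0303. That call held only without PBS mouse 2 (0.0413) and was lost without any other 1 of the 6 mice (0.0518 to 0.146). With rIL-13, edgeR called 0 genes of these lists in microglia, where 0.366% of all genes were called.

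In macrophages after rIL-4, 14 of the 39 list genes tested were called, 6 higher and 8 lower, beside 14% of all genes (6.77% and 7.2%). Among them, 1 of the 5 other P2Y receptor genes tested was higher and 2 were lower. P2ry1 rose by 1.35 (SE 0.24), from 13.8 ± 3.98 CPM to 35.1 ± 3.79 CPM, with an adjusted p of 0.00458. P2ry2, a receptor gene for ATP and UTP, fell from 51.5 ± 3.94 CPM to 26.4 ± 4.47 CPM, a change of -0.97 (SE 0.16; 0.00323). Gpr34, a lysophosphatidylserine receptor gene typical of microglia, fell from 60.2 ± 26.6 CPM to 3.13 ± 1.77 CPM, a change of -4.26 (SE 0.61; 0.00157), while the summed microglia markers of these libraries went from between 1084 and 2087 CPM to between 101 and 193 CPM. The part of those markers in the Gpr34 result was not tested. Of both other adenosine receptor genes, Adora2b rose by 1.71 (SE 0.29), from 15.6 ± 1.93 CPM to 50.9 ± 18.8 CPM (0.00394), and Adora1 was called lower at levels between 0 and 0.537 CPM, a call that held only without rIL-4 mouse 9 (0.0556 to 0.0945 without any other 1 of the 6 mice). The calls of P2ry2 (0.274), Adora2b (0.0975) and Adora1 (0.184) were lost with all 18 libraries in a model. The 1 other P2X receptor gene tested, P2rx1, was not called. Markers of other cells also moved in rIL-4 macrophages, as given above, and their part in the calls of list genes there was not tested.

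Genes that remove nucleotides or adenosine were called in both directions in rIL-4 macrophages, 6.77% of all genes being called higher and 7.2% lower. Of 8 other ectonucleotidase genes tested, 1 was higher and 2 were lower: Enpp1 went from 86.4 ± 9.33 CPM to 128 ± 12.0 CPM, Enpp4 from 2.06 ± 0.619 CPM to 0.594 ± 0.209 CPM and Cd38, an NAD glycohydrolase gene, from 233 ± 52.6 CPM to 154 ± 20 CPM. All 3 had adjusted p between 0.0230 and 0.0462. The call of Enpp1 was lost without rIL-4 mouse 10, PBS mouse 2 or PBS mouse 3 (up to 0.103), that of Enpp4 without rIL-4 mouse 8 or 10 or the same PBS mice (up to 0.117), and that of Cd38 without rIL-4 mouse 9 or 10 or PBS mouse 1 or 2 (up to 0.169). Of 10 genes of adenosine handling, 2 were higher and 1 was lower. Slc29a2, a nucleoside transporter gene, rose from 2.38 ± 0.653 CPM to 7.71 ± 1.67 CPM (0.00251) and Ampd2, an AMP deaminase gene, from 42.3 ± 7.12 CPM to 89.9 ± 4.17 CPM (0.00104). Ampd3, its paralog, fell from 65.4 ± 10.0 CPM to 31.9 ± 5.82 CPM (0.00549). Of 4 genes of nucleotide release, Slc17a9, the vesicular nucleotide transporter gene, was higher (6.36 ± 1.29 CPM to 15.0 ± 0.287 CPM; 0.00334). With all 18 libraries in a model, the calls of Enpp1, Cd38, Slc29a2 (adjusted p = 0.421), Ampd3 (0.0554) and Slc17a9 (0.0737) were lost.

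Of 9 genes through which purinergic receptors signal, 2 were lower and 0 higher in rIL-4 macrophages, beside 7.2% and 6.77% of all genes. Casp1, an inflammasome caspase gene, went from 44.8 ± 5.13 CPM to 26.0 ± 2.74 CPM (adjusted p = 0.00782, and 0.0568 with all 18 libraries in a model). Nlrp3, an inflammasome sensor gene, went from 32.3 ± 6.66 CPM to 11 ± 3.31 CPM (0.0282), a call that was lost without any 1 of the 6 mice (0.0533 to 0.0905). With rIL-13 in macrophages, 2 of the 39 list genes tested were called, a share of 5.13% beside 4.19% of all genes. Adora2b reached 41.4 ± 14.9 CPM (1.42, SE 0.29; 0.0255), a call lost without rIL-13 mouse 7 or any of the 3 PBS mice (0.0601 to 0.118), and Slc29a2 reached 7.58 ± 1.22 CPM (1.67, SE 0.27; 0.00740). With all 18 libraries in a model, neither was called (adjusted p = 0.370 and 0.674). Between rIL-4 and rIL-13, edgeR called 0 genes of the lists in either cell type, beside 0.0385% of all genes in microglia and 0.25% in macrophages.

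Between the cell types after PBS, 24 of the 41 list genes tested were called, 10 higher in microglia and 14 higher in macrophages, beside 24.5% and 16.3% of all genes. Gpr34 was 2.28 higher in microglia on the log2 scale (adjusted p = 0.00153), and the 4 other P2Y receptor genes tested were higher in macrophages, among them P2ry2 (-3.11; 2.93e-05) and P2ry1 (-1.66; 0.00666, and 0.0532 without PBS mouse 1). Adora2b was also higher in macrophages (-2.45; 0.000894). Of the 10 ectonucleotidase genes tested, 3 were higher in each cell type, such as Enpp4 (2.91) in microglia and Cd38 (-2.52) in macrophages. Of the 10 genes of adenosine handling, 2 were higher in each, among them Slc28a2 (-5.42; 0.00091) in macrophages. Of the 4 genes of nucleotide release, 1 was higher in microglia, Lrrc8a (0.81; 0.00604, and 0.0535 without PBS mouse 2). Of the 9 genes of receptor coupling, 1 was higher in microglia, Gnas (1.11), and 4 in macrophages, among them Kcnk13 (-1.18; 0.000145). The part of the markers of other cells in these differences was not tested.

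**Figure D5:**
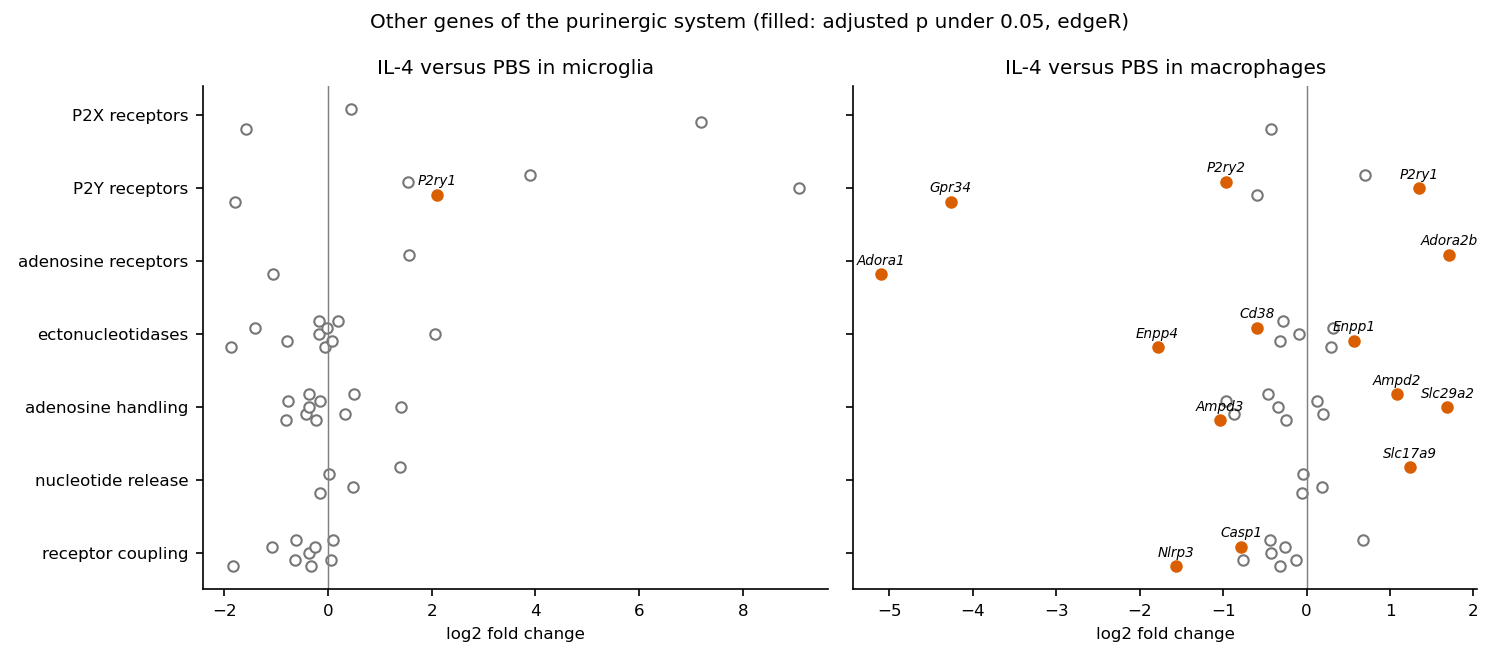
Log2 fold change after rIL-4 against PBS (horizontal axis) of the tested genes of the 7 pathway lists, in microglia and in macrophages; filled points have an adjusted p under 0.05. P2ry1 (2.10) is the filled point in microglia, and Gpr34 (-4.26), Slc29a2 (1.69) and Ampd2 (1.09) are among those in macrophages. P2rx5 and P2ry10, the genes farthest to the right in microglia, were listed at 0 in PBS microglia, so that their position depends on the prior count.

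The genes whose pattern over the 18 libraries was most like that of a member were found by the root mean square difference of centred log2(CPM + 1) over 11967 protein-coding genes. P2ry12 was nearest to Ldhb (0.38), Mef2c (0.39) and Golm1 (0.39), where the median gene differed by 1.45. P2ry6 was nearest to Phf23 (0.17), Il10rb (0.18) and Lman2 (0.18), with a median of 0.69. P2rx4 was nearest to Fam234a (0.17), Cd68 (0.19) and Plekhm2 (0.20), with a median of 0.79. Entpd1 was nearest to Mgat4a (0.21), Srgap2 (0.23) and Icam1 (0.25), with a median of 0.74. These distances describe the 18 libraries, in which the cell types differ most.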

How the data were processed

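RNA of sorted microglia and macrophages from 9 mice with spinal cord contusion was sequenced by SMART-seq2, which keeps neither strand nor molecular identifiers. The authors mapped reads to GRCm38 with STAR 2.5.3a and deposited RSEM 1.3.0 expected counts per gene (per the submitters' processing notes), all whole numbers and without normalization. Reads matching more than 1 gene are shared out by RSEM. The depth was between 35961305 and 45849829 counts per library, and its error covers counting only.

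Groups came from the labels, with 3 mice each. The main test was the quasi-likelihood test of edgeR 4.0.16 (R 4.3.3) with TMM and filterByExpr, on the 9 libraries of a cell type for treatments, on the 6 of a treatment for cell types and on all 18 for interactions, with Benjamini-Hochberg adjustment over all genes tested at 0.05. The alternatives were DESeq2 1.42.0 and its size factors, no filter, at least 10 counts in every library, other sets of libraries, the mouse as a replicate block, and leaving out each mouse. The fit code was tested on simulated data. CPM used TMM factors of the 18 libraries, with union exon lengths and positions from GENCODE M21. In the likeness search, 1 was added to CPM before the log.

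Both cell types of a mouse carry its number, so that mice pair the samples. Deviations from the group means correlated by 0.049 to 0.205 between the libraries of a mouse, over 16535 genes. All 10 members were named. List genes were named where they were called in a treatment comparison, and some where they were extreme in their list. Between the cell types, only some of the list genes called were named. The 3 nearest genes were named for P2ry12, P2ry6, P2rx4 and Entpd1. The microglia marker sums leave out 1 gene that is not reported here. The members and lists were chosen with earlier results of these data known. Promoters were matched by symbol to RefSeq (GRCm38.p6).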

Additional observations from a re-analysis of the deposited data

How the results depend on the processing

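Of 110 changes of the 10 genes over 11 comparisons, 21 were called, and 0 of these changed sign under any alternative. With DESeq2's Wald test, the genes called were 2 with rIL-4 in microglia (P2ry12 and P2ry13, against 1), 1 with rIL-13 in microglia (against 0), 2 with rIL-13 in macrophages (against 0) and 2 between rIL-4 and rIL-13 in macrophages (against 0). In these comparisons it also called more of all genes than edgeR, 7.81% against 2.22%, 2.07% against 0.366%, 8.55% against 4.19% and 3.09% against 0.25%. It called 8 between the cell types after PBS (against 6). The rIL-13 count in microglia was also 1 with all 18 libraries in a model (1.04% of all genes) and with at least 10 counts in every library (0.721%). Without a filter, it was 1 with rIL-13 in macrophages (3.26% of all genes) and 2 between the cytokines in macrophages (0.896%). With the mouse as a replicate block, 8 genes differed between the cell types after PBS (against 6; 40.2% of all genes), and the block changed no other call of a member. Leaving out 1 mouse gave between 0 and 1 with rIL-4 in microglia (0.459% to 1.62% of all genes), between 2 and 4 with rIL-4 in macrophages (2 without rIL-4 mouse 10; 7.39% to 11.4%), between 0 and 1 with rIL-13 in macrophages (1.41% to 3.76%), between 0 and 7 for the cell types after rIL-13 (8.44% to 25.4%) and between 3 and 4 after rIL-4 (12.9% to 18.3%). All of these shares were below those of all mice. P2ry6 in rIL-4 macrophages was not called with all 18 libraries (adjusted p = 0.0911), without a filter (0.0733) or with only the 6 libraries compared (0.0516). Of the list genes in that comparison, all 18 libraries in a model gave P2ry2 0.274, Adora1 0.184, Adora2b 0.0975, Enpp1 0.159, Cd38 0.322, Slc29a2 0.421, Ampd3 0.0554, Slc17a9 0.0737, Nlrp3 0.0867 and Casp1 0.0568, and only the 6 libraries compared gave Cd38 0.0574. The cause was not tested. Depth limits Adora2a and P2ry14, which had the lowest counts.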
